A study of Mus musculus with 18 samples.

Results

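Interferon-stimulated genes are the genes that cells switch on when interferons reach them, and 39 of them were followed here in the dura mater of mice with and without a stroke. A gene was counted as measured when a probe set carried its symbol and no other; where several did, the probe set with the highest mean over the 18 arrays stood for it. This gave 36 of the 39 genes, out of 21640 probe sets with exactly 1 symbol (19937 genes) in a table of 34760. Isg15 and Gbp2 lie on probe sets with several symbols, and Ifi44 was not found; none of the 3 was analysed here.

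Dura mater, the outer membrane around the brain, was taken from 18 male mice aged 17 to 21 weeks, perfused with PBS, and hybridised to Affymetrix arrays with 1 mouse per array and 3 mice in each of 6 groups. Wild-type mice were WBB6F1-Kit+/+. Mast cell-deficient mice were WBB6F1-KitW/W-v, which carry 2 mutated alleles of the receptor Kit in every cell, not in mast cells alone. Mast cell-engrafted mice were WBB6F1-KitW/W-v mice given mast cells intravenously 8 to 10 weeks earlier. Each of the 3 categories had naive mice and mice whose middle cerebral artery had been closed with a filament for 30 minutes, with dura taken 2 days later. The naive mice were not operated on and no sham group was analysed here, so effects of stroke and of surgery cannot be told apart. The study asked how stroke changes dural gene expression and what mast cells add to it. Each animal is a separate mouse, so p-values measure the spread between mice.

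Type I and type III interferons signal through receptor-bound kinases to a complex of Stat proteins and Irf9, which binds the interferon-stimulated response element (ISRE) in front of its target genes. Interferon gamma signals to a Stat dimer that binds the gamma-activated sequence (GAS). The targets include sensors of foreign nucleic acid, enzymes and binding proteins that block viral replication, and the proteasome subunits and transporters that supply peptides to MHC class I molecules.

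To show what such elements look like in the listed genes, the 250 bases upstream of the transcription start were read from RefSeq (GRCm38.p6), which held 27 of the 36 measured genes. The ISRE was searched as GAAA, 2 bases of any kind and GAAA again, and the GAS as TTCNNNGAA, on both strands; matches were allowed to overlap. The ISRE letters stood in 7 of the 27 members (25.9%) and in 3.46% of 27025 genes, and the GAS letters in 7 (25.9%) and in 8.13%. Bst2 held both. The following 160 bases end at the base before the start. Ifit1, Ifit3 and Gbp3 are shown because they hold more than 1 ISRE match and vary widely between mice, and Psmb8 and Irf1 because they hold GAS letters and belong to the genes with the smallest p after stroke. Capitals mark the matches, which for the ISRE lie on the other strand and read TTTC, 2 bases and TTTC here.
Ifit1, chr19:34640729-34640888, plus strand: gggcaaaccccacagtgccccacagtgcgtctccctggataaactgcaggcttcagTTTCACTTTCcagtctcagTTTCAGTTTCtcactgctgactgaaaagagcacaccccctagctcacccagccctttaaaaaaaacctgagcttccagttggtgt
Ifit3, chr19:34583369-34583528, plus strand: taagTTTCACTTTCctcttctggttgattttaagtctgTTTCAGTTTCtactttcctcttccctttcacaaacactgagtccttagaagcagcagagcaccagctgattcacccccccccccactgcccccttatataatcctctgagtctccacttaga
Gbp3, chr3:142559884-142560043, plus strand: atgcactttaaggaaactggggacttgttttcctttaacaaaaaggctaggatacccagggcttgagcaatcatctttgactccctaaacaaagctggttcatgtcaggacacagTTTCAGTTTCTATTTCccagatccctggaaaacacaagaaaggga
Psmb8, chr17:34198035-34198194, plus strand: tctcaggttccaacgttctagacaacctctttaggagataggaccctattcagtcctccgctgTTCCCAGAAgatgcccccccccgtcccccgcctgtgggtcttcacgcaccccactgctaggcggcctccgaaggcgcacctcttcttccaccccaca
Irf1, chr11:53769854-53770013, plus strand: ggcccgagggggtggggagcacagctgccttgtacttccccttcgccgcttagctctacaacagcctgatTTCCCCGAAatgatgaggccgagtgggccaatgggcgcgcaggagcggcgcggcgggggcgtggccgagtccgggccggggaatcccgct
In Ifit1 the ISRE matches began 104 and 85 bases before the start, and in Ifit3 156 and 122 bases before it. In Gbp3 they began 45 and 39 bases before the start and overlapped. The GAS letters began 97 bases before the start in Psmb8 and 90 in Irf1.

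The arrays were alike in scale, with medians of 7.77 to 7.91 and correlations of 0.985 to 0.995 between arrays of a group. In 5 arrays (deficient naive 1 and 3, engrafted naive 3, wild-type stroke 2 and deficient stroke 2) Ttr, the main secreted protein of the choroid plexus, lay between 9.03 and 10.17, against 13.03 or more in the others. Leaving out these 5 leaves naive deficient dura with 1 array, which is then assumed to vary like the other groups. The 9 measured mast cell markers averaged 6.19 and 6.31 in naive and stroke deficient dura and 7.76 to 8.03 in the other groups. All levels are log2 signal, and differences are on the log2 scale. A gene is said to rise or fall when its adjusted p in limma was under 0.05.

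In wild-type dura, 1 of the 36 interferon-stimulated genes rose after stroke and none fell. It was Zbp1, a sensor of Z-form nucleic acid that can trigger inflammatory cell death, which rose 2.04-fold; the other 35 did not pass the test. Among all tested probe sets 10.9% passed (6.24% higher, 4.63% lower), so the members' count lay below the share of the array. The median difference of the 36 was 0.08, with 22 above 0, against a median of 0.01 for all tested probe sets. At an unadjusted p under 0.05 there were 4 members higher and 4 lower, against 26% of all tested probe sets in either direction. For 35 members the 95% confidence interval stayed below a doubling and for all 36 above a halving.

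Zbp1 (probe set 10490150) measured 8.69, 8.27 and 7.82 in naive wild-type dura and 9.39, 9.23 and 9.25 after stroke. In deficient dura it was 8.31, 8.18 and 8.48 in naive mice and 8.60, 8.38 and 8.57 after stroke. In engrafted dura it was 8.57, 8.18 and 8.30 in naive mice and 8.81, 8.77 and 8.79 after stroke. All wild-type stroke mice lay above every other mouse in the study, and the engrafted stroke mice lay above all naive mice. The stroke difference was 1.03 (SE 0.16, adjusted p = 0.000747) in wild-type, 0.20 (SE 0.16, adjusted p = 0.579) in deficient and 0.44 (SE 0.16, adjusted p = 0.269) in engrafted dura. In wild type it kept its call without any single array, at 0.81 to 1.25.

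The members with the next smallest p in wild type differed in both directions and did not pass. Naive and stroke wild-type mice did not overlap in 2 members higher and 2 lower after stroke. Among the 21640 tested probe sets 3425 were higher and 3073 lower without overlap. Cmpk2, a mitochondrial nucleotide kinase, was 8.18, 8.25 and 8.06 in naive and 7.93, 7.68 and 7.87 in stroke dura, a difference of -0.34 (SE 0.11, adjusted p = 0.0571) without overlap. Adar, which edits adenosine in double-stranded RNA, was 9.61, 9.63 and 9.63 against 9.43, 9.55 and 9.38, a difference of -0.17 (SE 0.06, adjusted p = 0.0668). Adar had the smallest spread of all members and the groups did not overlap; it passed as lower without wild-type stroke replicate 2 (-0.22, adjusted p = 0.038). Oasl1, an oligoadenylate synthetase-like protein, was 8.16, 7.80 and 7.76 against 8.22, 8.26 and 8.22, higher by 0.33 (SE 0.12, adjusted p = 0.092) without overlap. Mx1, an antiviral GTPase, was 6.78, 7.09 and 6.62 against 6.65, 6.29 and 6.45, a difference of -0.36 (SE 0.16, adjusted p = 0.165) with overlap. Without wild-type naive replicate 1, 3 members passed, all higher: Zbp1, Oasl1 and Ifi35. Without wild-type stroke replicate 2 there were 2, Zbp1 higher and Adar lower. The median of the 36 also rested on single mice, at -0.05 with 15 above 0 without wild-type naive replicate 3. It depended on the model too, at -0.12 with 8 above 0 when choroid plexus and neuron scores entered the fit as covariates. Neuron markers averaged 10.18 to 10.76 in naive and 9.38 to 9.80 in stroke wild-type mice, without overlap. In wild type these covariates can therefore also remove part of the stroke difference.

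**Figure D1:**
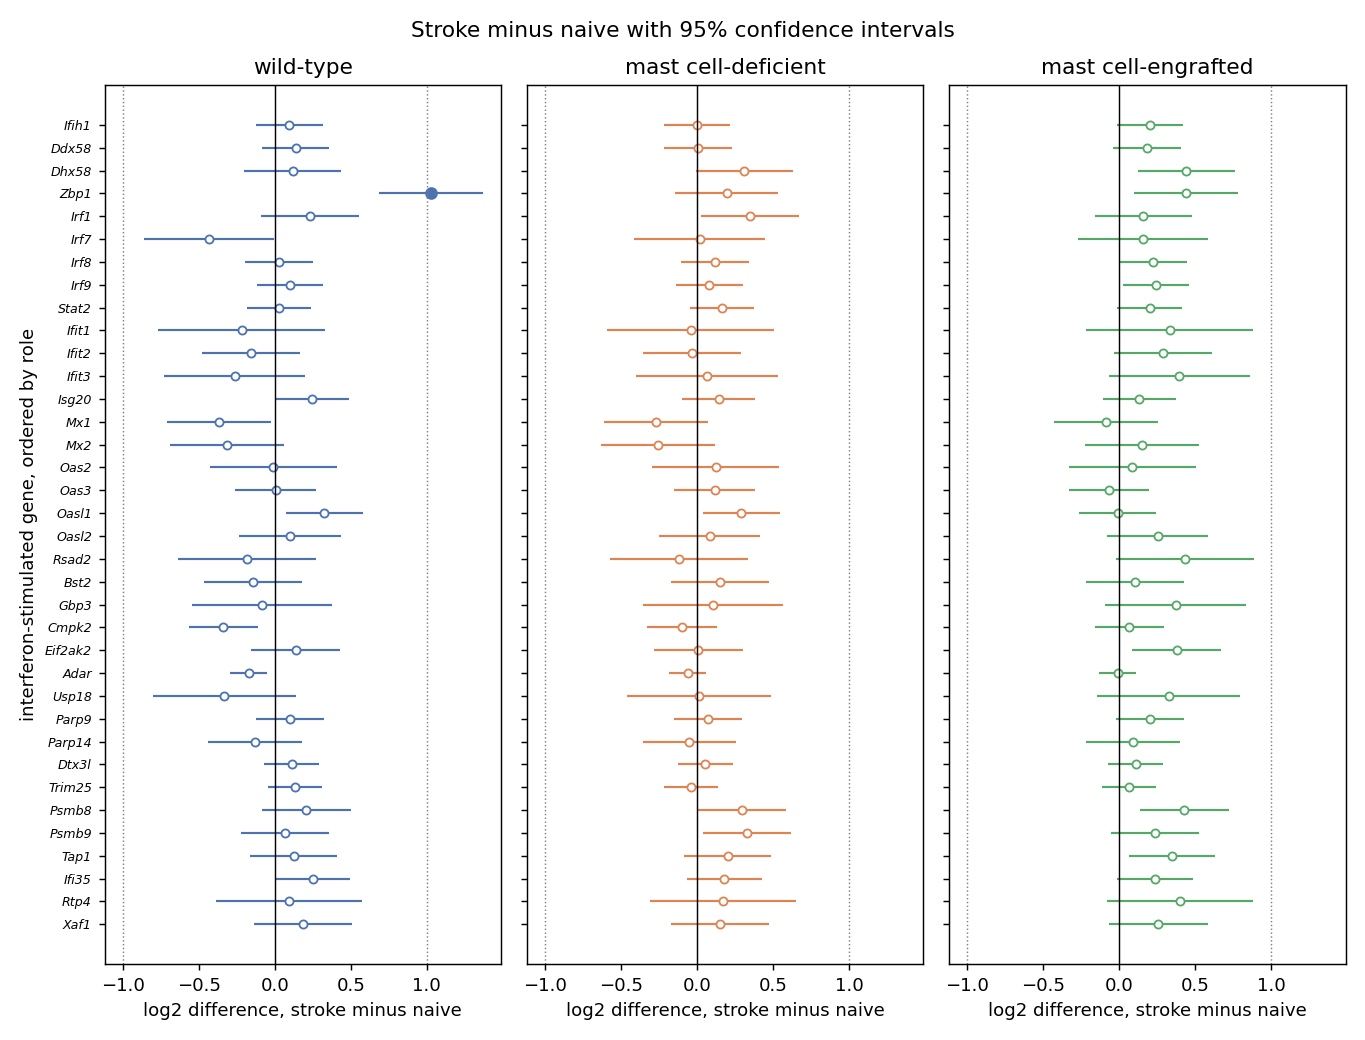
Stroke minus naive difference (log2) of each of the 36 genes in wild-type, mast cell-deficient and mast cell-engrafted dura; points are the fitted differences and bars their 95% confidence intervals. Zbp1 in wild-type dura stands apart at 1.03, while in engrafted dura 32 of the 36 points lie above 0 at a median of 0.21.

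In mast cell-deficient dura, no member passed after stroke, and 0.25% of all tested probe sets did (0.125% in each direction). The median difference was 0.08, with 27 of 36 above 0, against 0.04 and 61.4% for all tested probe sets. There were 4 members with an unadjusted p under 0.05 (13.5% of all tested), all higher: Oasl1, Psmb9, Irf1 and Psmb8. Psmb9, an interferon-induced catalytic subunit of the immunoproteasome, measured 9.05, 8.71 and 8.96 in naive and 9.24, 9.31 and 9.16 in stroke dura, a difference of 0.33 (SE 0.14, adjusted p = 0.328) without overlap. Irf1, a transcription factor strongly induced by interferon gamma, measured 9.89, 9.42 and 10.09 against 10.34, 10.07 and 10.04, a difference of 0.35 (SE 0.15, adjusted p = 0.341) with overlap. Irf1 is the only member with another probe set. That dimmer one (mean 7.85) gave -0.02 in the same comparison, so the probe sets disagreed. They also disagreed in wild-type dura (0.23 against -0.02 with the dimmer one) and in engrafted dura (0.16 against -0.13). Oasl1 measured 7.78, 8.06 and 8.06 against 8.17, 8.09 and 8.50, a difference of 0.29 (SE 0.12, adjusted p = 0.316) without overlap. In 6 members all stroke mice lay above all naive mice and in 1 below, against 2967 and 1282 of the 21640 tested probe sets. All 36 confidence intervals excluded a doubling and a halving. Without the 5 arrays lowest in Ttr the median was 0.20 with 29 above 0.

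In engrafted dura most members measured slightly higher after stroke than in naive mice, and none passed. The median difference was 0.21 and 32 of 36 lay above 0, against -0.01 and 45.2% for all tested probe sets, of which 1.11% passed (0.878% higher). In 14 members all stroke mice were above all naive mice and in none below; among all tested probe sets 8.89% were above without overlap. Those 14 included every nucleic acid sensor and 4 of the 16 effectors. There were 6 members with an unadjusted p under 0.05, all higher (10.9% of all tested in either direction). All 36 intervals again excluded a doubling and a halving. Leaving out engrafted naive replicate 2, which was the lowest naive mouse for 31 members, gave a median of 0.15 with 30 above 0. Leaving out each other mouse gave 0.18 to 0.25, and without the 5 arrays lowest in Ttr it was 0.25 with 34 above 0.

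The genes with the smallest p in engrafted dura were of several roles. Eif2ak2, the kinase that halts translation on sensing double-stranded RNA, measured 8.88, 8.75 and 8.68 in naive and 9.30, 9.13 and 9.02 in stroke dura, a difference of 0.38 (SE 0.14, adjusted p = 0.263). Tap1, part of the peptide transporter that loads MHC class I, measured 8.37, 8.37 and 8.65 against 8.79, 8.87 and 8.77, a difference of 0.35 (SE 0.13, adjusted p = 0.31). In both genes the naive and stroke mice did not overlap. Psmb8 differed by 0.43 (SE 0.14, adjusted p = 0.186) and Dhx58 by 0.44 (SE 0.15, adjusted p = 0.226), with no overlap either.

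Averaged over the 3 categories, 4 members rose after stroke and none fell: Zbp1, Psmb8, Dhx58 and Ifi35. Of all tested probe sets 13.5% passed this comparison (8.05% higher), a share close to that of the members. The median difference was 0.12 with 30 of 36 above 0, against 0.01 and 54.9% for all tested. At an unadjusted p under 0.05 there were 13 members higher and 2 lower, and 27.2% of all tested in either direction. Zbp1 rose by 0.55 (SE 0.09, adjusted p = 0.000946). Psmb8, a catalytic subunit of the immunoproteasome (probe set 10444258), rose by 0.31 (SE 0.08, adjusted p = 0.0168). Dhx58 (probe set 10391207), a regulator of the RNA sensors Ddx58 and Ifih1, rose by 0.29 (SE 0.09, adjusted p = 0.0365), and Ifi35 (probe set 10381408), an interferon-induced leucine zipper protein, by 0.22 (SE 0.07, adjusted p = 0.0398).

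Psmb8 measured 9.16, 8.86 and 8.65 in naive and 9.12, 9.18 and 9.01 in stroke wild-type dura. It measured 8.92, 8.57 and 9.02 against 9.04, 9.24 and 9.12 in deficient and 8.82, 8.66 and 9.03 against 9.19, 9.44 and 9.17 in engrafted dura. Stroke mice lay above naive mice without overlap in the deficient and engrafted categories, while in wild type naive replicate 1 lay among the stroke mice. Dhx58 measured 8.44, 8.05 and 7.68 against 8.28, 8.10 and 8.15 in wild type, 7.76, 7.54 and 7.72 against 7.96, 8.04 and 7.96 in deficient and 7.91, 7.73 and 7.92 against 8.57, 8.16 and 8.15 in engrafted dura. Ifi35 measured 9.42, 8.77 and 8.87 against 9.29, 9.23 and 9.29 in wild type, 9.13, 8.99 and 8.96 against 9.25, 9.17 and 9.21 in deficient and 9.07, 9.02 and 9.07 against 9.27, 9.36 and 9.23 in engrafted dura. In both genes wild-type naive replicate 1 was the only naive mouse as high as the stroke mice of its category. Oasl1, next by p, differed by 0.20 (SE 0.07, adjusted p = 0.0629). The count of 4 depended on single mice: it was 7 without wild-type naive replicate 1. It was 2 (Zbp1 and Psmb8) without any one of wild-type naive replicates 2 and 3, deficient naive replicate 2, engrafted naive replicates 1 and 2, deficient stroke replicates 1 and 3, and engrafted stroke replicate 1. Taken singly, Ifi35 lost its call without any 1 of 15 of the 18 mice (adjusted p up to 0.0824) and with array weights (0.0921), and Dhx58 without any 1 of 12 (up to 0.0731). Psmb8 kept its call without any single mouse but lost it with the covariates (adjusted p = 0.0771). Without the 5 arrays lowest in Ttr 4 members passed, but with Irf1 and Tap1 in place of Dhx58 and Ifi35, and with the covariates 2 passed, Zbp1 higher and Mx1 lower.

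**Figure D2:**
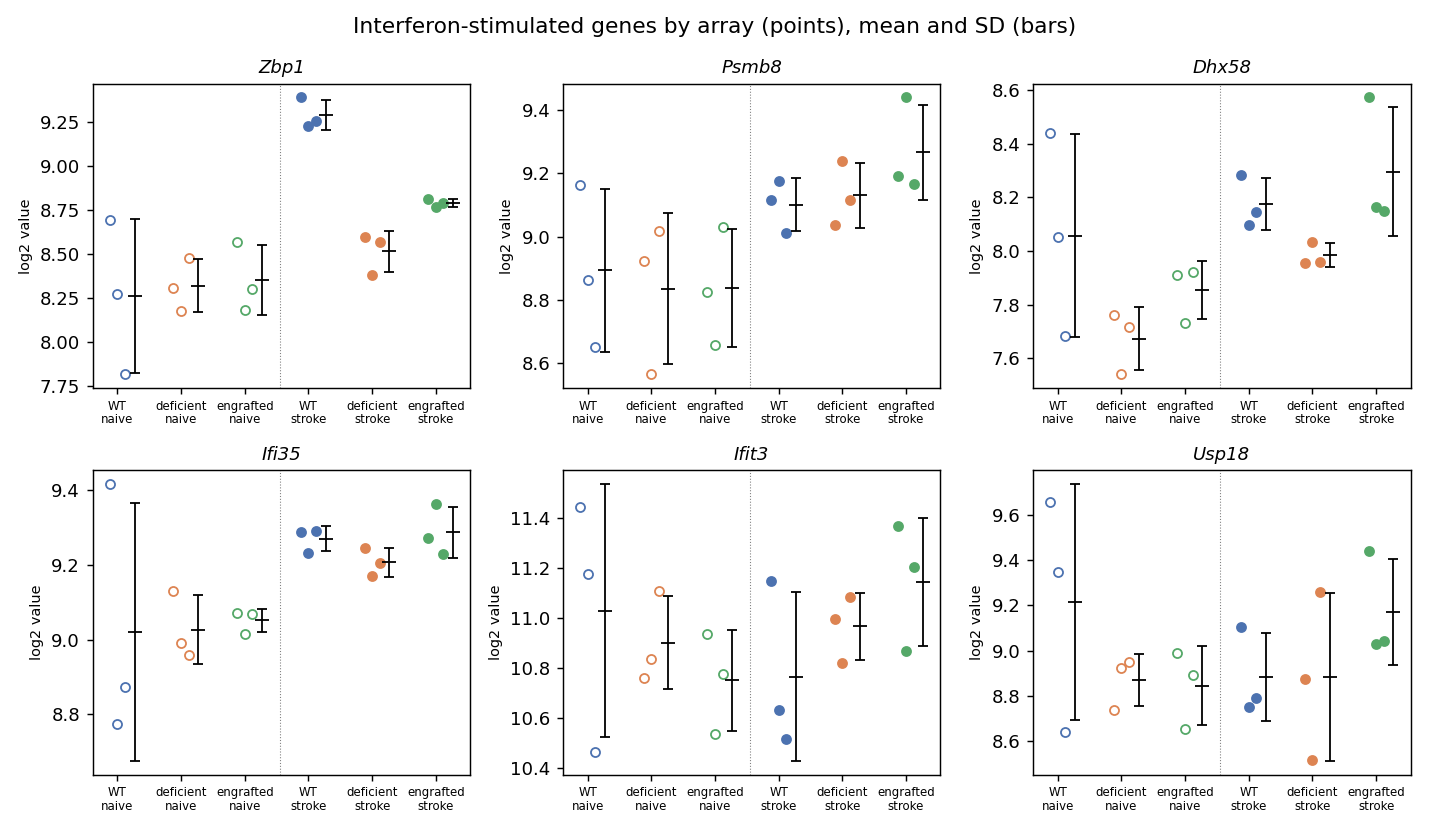
Log2 level of Zbp1, Psmb8, Dhx58, Ifi35, Ifit3 and Usp18 in each of the 18 mice by group; points are mice and bars the group mean and SD. Zbp1 at 9.23 to 9.39 in wild-type stroke dura lies above every other mouse, whereas Ifit3 and Usp18 spread as widely within naive wild-type dura as between groups.

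By role, the 4 nucleic acid sensors (Ddx58, Ifih1, Dhx58 and Zbp1) had stroke differences above 0 in every category, with medians of 0.13 in wild-type, 0.10 in deficient and 0.32 in engrafted dura. Ddx58, which senses short RNA with a triphosphate end, differed by 0.14, 0.01 and 0.18 in that order, and Ifih1, which senses long double-stranded RNA, by 0.10, 0.00 and 0.20. The 3 genes of MHC class I peptide supply (Psmb8, Psmb9 and Tap1) were also above 0 in every category, with medians of 0.12, 0.30 and 0.35. The 5 transcription factors had medians of 0.03, 0.12 and 0.20. Irf7, the factor that amplifies interferon production, was the exception in wild type at -0.43 (SE 0.20, adjusted p = 0.19), and Irf9 and Stat2 differed there by 0.10 and 0.03.

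The 16 antiviral effectors, the largest role, had a median of -0.15 in wild-type dura with 5 above 0. Their median was 0.04 in deficient and 0.14 in engrafted dura, with 9 and 12 above 0, and none passed in any category. Ifit3, which binds viral RNA in a complex with other Ifit proteins, measured 11.45, 11.18 and 10.46 in naive and 11.15, 10.63 and 10.52 in stroke wild-type dura. In engrafted dura it measured 10.94, 10.54 and 10.78 against 11.37, 10.87 and 11.20, and the groups overlapped in both. Its differences were -0.26 (SE 0.22, adjusted p = 0.484) and 0.40 (SE 0.22, adjusted p = 0.55). Usp18, which removes ISG15 from proteins and dampens interferon signalling, differed by -0.33 in wild-type, 0.01 in deficient and 0.33 in engrafted dura. The 5 genes of ISG15, ubiquitin and ADP-ribose modification, Usp18 among them, had medians of 0.10, 0.01 and 0.11. Xaf1, Rtp4 and Ifi35, outside these roles, were above 0 in every category with medians of 0.19, 0.17 and 0.26.

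The upstream elements divided the members in the same comparison as a description only. The 6 with ISRE letters alone (Ifit1, Ifit3, Stat2, Oas3, Rsad2 and Gbp3) had a median stroke difference of -0.13 in wild-type and 0.35 in engrafted dura. The 6 with GAS letters alone (Ifit2, Isg20, Irf1, Irf8, Psmb8 and Eif2ak2) had medians of 0.17 and 0.26, and the 14 with neither 0.11 and 0.19. In wild type 2 of the 6 ISRE genes, 5 of the 6 GAS genes and 11 of the 14 with neither were above 0. In deficient dura the medians were 0.09, 0.13 and 0.07 in that order. Irf1 enters here by its brighter probe set, and the dimmer one was below 0 in all 3 categories.

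Interferon-stimulated genes varied between mice of 1 group more than most genes did. The median within-group SD was 0.187 for the members and 0.119 for all tested probe sets, and 33 of the 36 members exceeded the latter. Ifit1, the most variable, had an SD of 0.353, higher than 96.2% of tested probe sets, followed by Rtp4 (0.306), Usp18 (0.301), Ifit3 (0.297) and Gbp3 (0.295). Adar (0.0522), Trim25 (0.0993) and Dtx3l (0.102) were the exceptions. The median SE of a difference of 3 against 3 mice was accordingly 0.14 for the members and 0.10 for all tested. Ifit1 shows the size of this spread: it measured 10.34, 10.06 and 9.26 in naive wild-type dura, a range as wide as that of all 18 mice.

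The members shared much of this variation mouse by mouse. Wild-type naive replicate 3 was the lowest of its group in 32 of the 36 members (88.9%), against 35.9% of all tested probe sets. Wild-type naive replicate 1 was the highest in 21 (58.3% against 20%), and was the highest of all 18 mice in 11. Engrafted naive replicate 2 was lowest of its group in 31 (86.1% against 32.8%), and wild-type stroke replicate 1 highest in 28 (77.8% against 27.7%). Expressed as the mean deviation of the 36 genes from their own 18-mouse means, the naive wild-type mice stood at 0.22, 0.05 and -0.24, which spans nearly the whole range of the 18 mice. The other naive mice stood at -0.14, -0.19 and 0.03 (deficient) and 0.01, -0.21 and -0.01 (engrafted). After stroke the values were 0.18, -0.03 and -0.05 in wild-type, -0.01, -0.11 and 0.05 in deficient, and 0.22, 0.13 and 0.09 in engrafted mice. Group means were 0.01 ± 0.23, -0.10 ± 0.12 and -0.07 ± 0.12 in naive and 0.03 ± 0.13, -0.02 ± 0.08 and 0.15 ± 0.07 in stroke dura (SD, n = 3 each), in the order wild-type, deficient, engrafted. The engrafted stroke mice were all above the other engrafted mice, and the other categories overlapped. The array-wide median deviated by no more than 0.05 in any array.

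**Figure D3:**
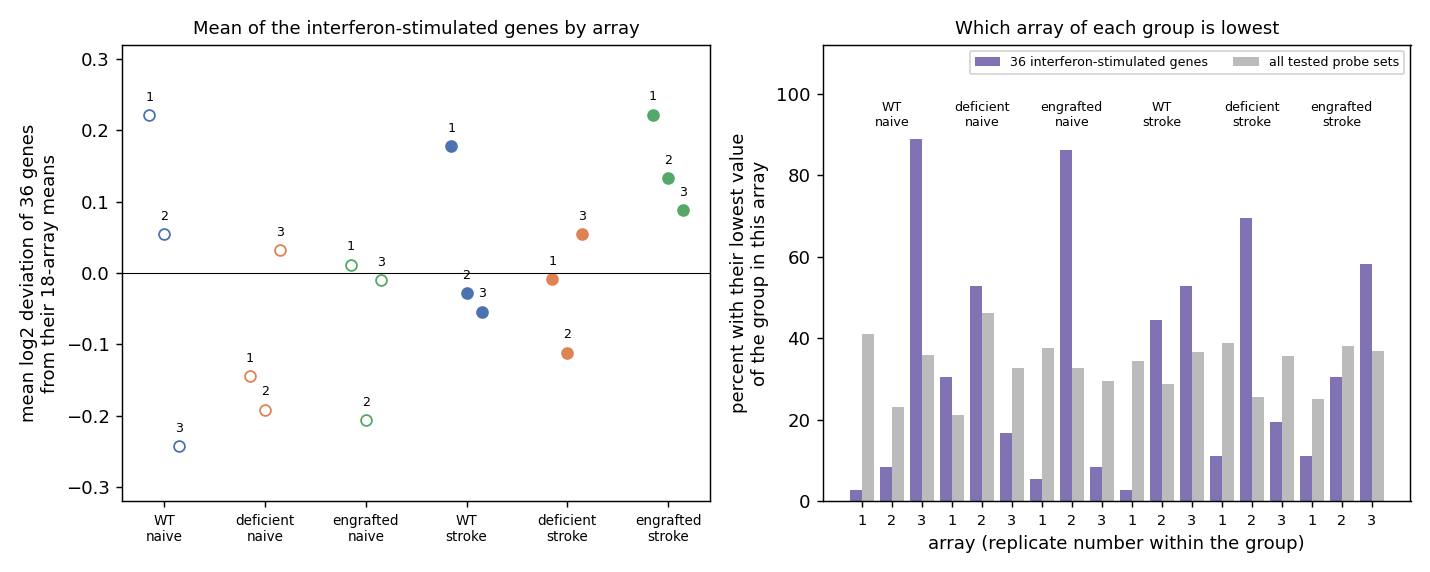
Left, mean deviation (log2) of the 36 genes from their 18-mouse means in each mouse, by group, with replicate numbers beside the points; right, percent of the 36 genes and of all tested probe sets whose lowest value within a group fell in each mouse. Naive wild-type mice range from -0.24 to 0.22, and the engrafted stroke mice from 0.09 to 0.22 lie above the naive engrafted mice, while at right wild-type naive replicate 3 (88.9%) and engrafted naive replicate 2 (86.1%) have the tallest bars.

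**Figure D4:**
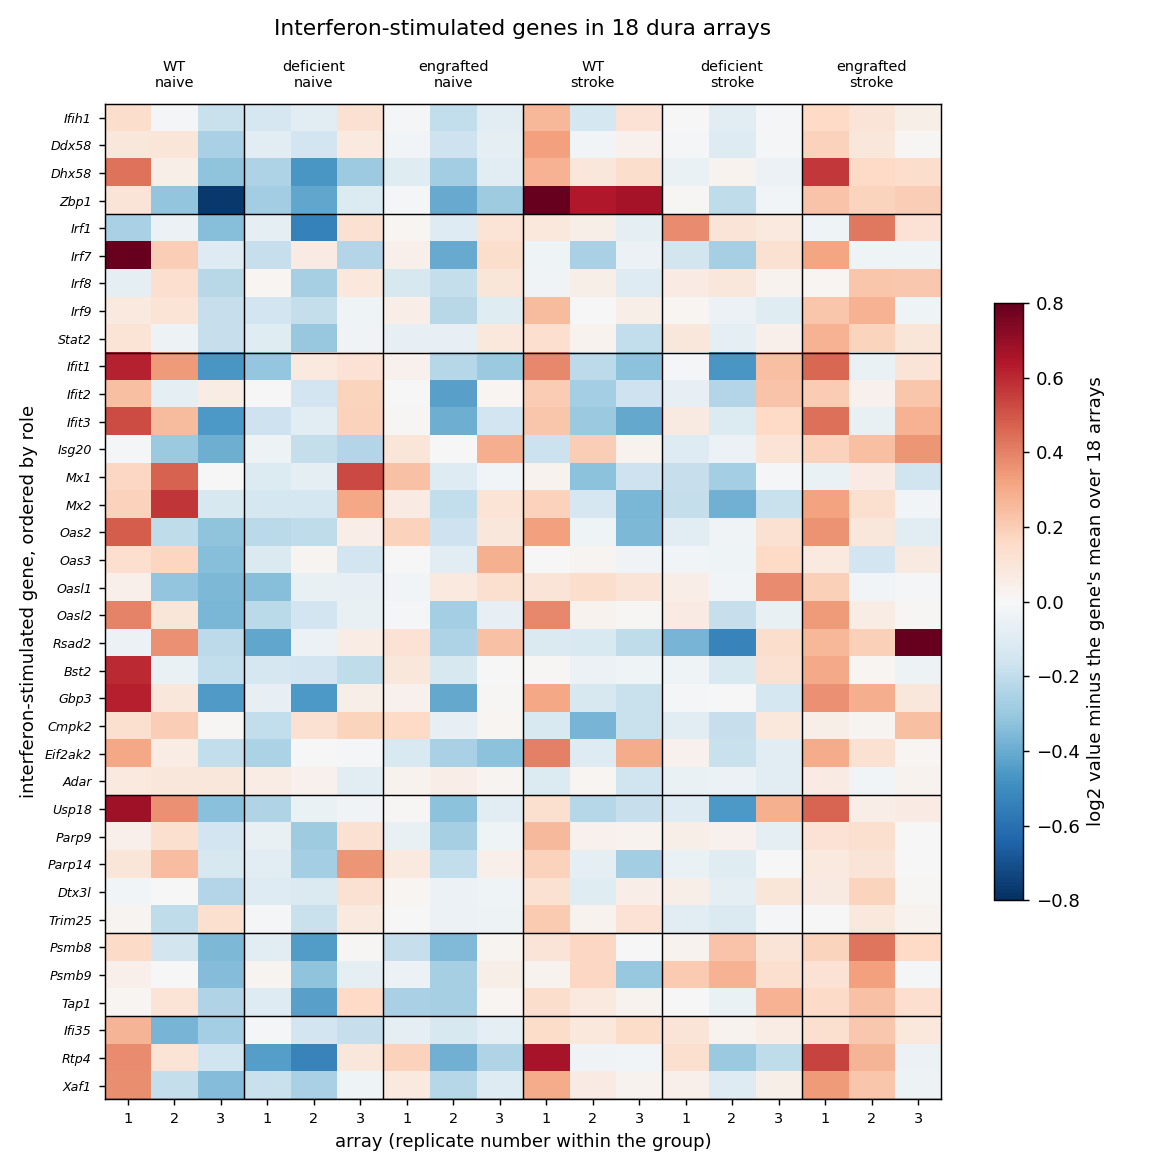
Deviation (log2, colour bar; larger deviations take its end colours) of each of the 36 genes from its own mean in each of the 18 mice, in rows by role. Wild-type naive replicates 1 and 3 form contrasting columns, high and low in most rows, and the Zbp1 row is highest in the wild-type stroke mice.

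Between the categories, naive dura showed no member that passed in any of the 3 comparisons. Deficient minus wild-type dura had a median of -0.09 with 6 of 36 above 0, and 0.0185% of all tested probe sets passed. Engrafted minus deficient had a median of 0.03 and 23 above 0 (0.0185% passed), and engrafted minus wild-type -0.08 and 10 above 0 (0% passed). All tested probe sets had medians of -0.01, 0.02 and 0.005 in that order, with 45.6%, 57.2% and 51.3% above 0. Without single mice the members' medians ranged from -0.18 to -0.004, -0.03 to 0.09 and -0.18 to -0.01. At an unadjusted p under 0.05 there were 0 members higher and 2 lower (Dhx58, Irf7), 1 higher (Isg20), and 2 higher (Isg20, Oasl1) and 1 lower (Eif2ak2), in that order. All tested probe sets at that threshold made up 6.82%, 4.7% and 19.1%. Dhx58 was -0.38 (SE 0.15, adjusted p = 0.695) and Irf7 -0.43 (SE 0.20, adjusted p = 0.727) in deficient minus wild-type dura. Irf7 measured 9.53, 8.86 and 8.56 in naive wild-type and 8.48, 8.73 and 8.43 in naive deficient dura, where replicate 1 of the wild type lay far above the others. Bst2, which tethers budding virus to the cell, measured 10.18, 9.53 and 9.39 against 9.45, 9.43 and 9.38. Rtp4 measured 9.47, 9.20 and 8.93 against 8.65, 8.55 and 9.18, and Usp18 9.66, 9.35 and 8.64 against 8.74, 8.92 and 8.95. The groups overlapped in each of these genes. Isg20, an RNA exonuclease, measured 9.48, 9.19 and 9.10 in wild-type, 9.45, 9.30 and 9.26 in deficient and 9.59, 9.49 and 9.78 in engrafted naive dura. The engrafted mice lay above both other groups, by 0.36 (SE 0.11, adjusted p = 0.146) against wild type and 0.29 (SE 0.11, adjusted p = 0.917) against deficient dura. Without overlap 1 member was higher and 1 lower than in wild type, against 2628 and 2670 of 21640 tested probe sets. Against deficient dura 3 members were higher and none lower, beside 1843 and 765 of all tested. Stat2, a partner in the complex that binds the ISRE, and Oas3, which makes the activator of RNase L, differed by 0.13 and 0.15 in engrafted minus deficient dura. The Oas3 difference turned to -0.06 without the 5 arrays lowest in Ttr.

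In stroke dura Zbp1 was lower in deficient than in wild-type mice, with a difference of -0.77 (SE 0.16, adjusted p = 0.0159) and no overlap, and it was the only one of the 36 to pass. Of all tested probe sets 2.61% passed (1.97% lower). Its members at an unadjusted p under 0.05 numbered 2, both lower (14.4% of all tested). The call was lost without wild-type stroke replicate 1 (adjusted p = 0.0701), deficient stroke replicate 2 (0.088) or deficient stroke replicate 3 (0.0551), with the covariates (0.12) and without the 5 low-Ttr arrays (0.213). The median of the members was -0.01. Deficient mice lay below wild-type mice without overlap in 3 members and above in none, against 2159 and 2047 of 21640 tested probe sets. Trim25, a ubiquitin ligase of the RNA sensing pathway, measured 9.52, 9.34 and 9.43 in wild-type and 9.22, 9.20 and 9.29 in deficient stroke dura, a difference of -0.19 (SE 0.08, adjusted p = 0.304) without overlap.

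Engrafted stroke dura lay slightly above deficient stroke dura across the members, with none past the test. The median was 0.15 with 32 of 36 above 0, against -0.02 and 41.7% for all tested probe sets, of which 0.0277% passed. In 12 members all engrafted mice lay above all deficient mice, against 3.81% of all tested probe sets, and in none below. Rsad2 (viperin, an enzyme that makes an antiviral nucleotide) measured 8.10, 7.94 and 8.61 in deficient and 8.74, 8.66 and 9.41 in engrafted stroke dura, a difference of 0.72 (SE 0.21, adjusted p = 0.687). Its engrafted mice did not overlap with the deficient ones, and its interval of 0.27 to 1.17 included a doubling. Mx2, another antiviral GTPase, measured 6.27, 6.07 and 6.28 against 6.78, 6.59 and 6.43, a difference of 0.39 (SE 0.18, adjusted p = 0.778). Irf9 measured 9.19, 9.13 and 9.07 against 9.40, 9.45 and 9.14, and Isg20 9.39, 9.44 and 9.60 against 9.67, 9.73 and 9.84. At an unadjusted p under 0.05 there were 3 members, all higher (6.28% of all tested).

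Engrafted against wild-type stroke dura gave no member past the test, with 0.411% of tested probe sets passing. The median was 0.12 with 29 above 0, against -0.02 and 42% for all tested. At an unadjusted p under 0.05 there were 3 members higher (Cmpk2, Rsad2 and Isg20) and 1 lower, against 11.6% of all tested. That one was Zbp1, at -0.50 (SE 0.16, adjusted p = 0.195) without overlap. Cmpk2 differed by 0.33 (SE 0.11, adjusted p = 0.205) and Rsad2 by 0.61 (SE 0.21, adjusted p = 0.24), and in both the engrafted mice lay above the wild-type mice. Stat2 differed by 0.19 (SE 0.10, adjusted p = 0.492). Without overlap 2 members were higher and 1 lower, against 1723 and 1683 of 21640 tested probe sets. With the covariates the median of the 36 was 0.28.

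No member's stroke response differed between the categories past the threshold. For deficient minus wild-type the median difference of responses was 0.08 (23 above 0, 1 member with an unadjusted p under 0.05 against 7.35% of all tested; 0.351% passed). For engrafted minus wild-type it was 0.18 (28 above 0, 3 members against 13.2%; 0.106% passed) and for engrafted minus deficient 0.14 (29 above 0, 0 members against 9.69%; 0.00462% passed). All tested probe sets had medians of 0.03, -0.02 and -0.04 in that order, with 59.5%, 46.4% and 42.1% above 0. Both comparisons with wild type share its 6 mice. Zbp1 had the response most below that of wild type, with differences of -0.83 (SE 0.23, adjusted p = 0.193) in deficient and -0.59 (SE 0.23, adjusted p = 0.291) in engrafted dura. The former passed at -1.05 (adjusted p = 0.0241) without wild-type naive replicate 1. For engrafted minus wild-type, Cmpk2 differed by 0.40 (SE 0.15, adjusted p = 0.286) in the direction opposite to Zbp1. Ifit3, Usp18 and Ifit2 differed there by 0.66, 0.66 and 0.44, and none passed the threshold. These intervals were wide: for engrafted minus wild-type 30 of 36 excluded a doubling. The median for deficient minus wild-type fell to -0.02 with 18 above 0 without wild-type naive replicate 1, and that for engrafted minus deficient to 0.01 with 20 above 0 without the 5 arrays lowest in Ttr.

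Around these genes, the rest of the interferon pathway gave calls in signalling molecules, an adaptor, a kinase of interferon induction and other target genes, and none in the interferons. None of 13 measured interferon ligands passed in any stroke comparison, and their median in wild type was 0.05. At least 1 of them was dim: Ifnk reached at most 5.36 in any mouse, while the lower quartile of signals was 6.09 or more in every array. Ifnab lay below that quartile in wild-type naive replicate 3 alone, and Ifna5 lay above it in all mice. For a ligand as dim as Ifnk, the absence of a call does not show unchanged expression. Of 15 genes of receptors and signalling, 3 rose in wild-type dura and none fell, where 6.24% of all tested probe sets rose and 4.63% fell; none of the 3 is a receptor. Socs3, an inhibitor of cytokine receptors that answers to interleukin 6 type cytokines as well as to interferon, measured 8.08, 8.10 and 8.14 in naive and 9.54, 9.47 and 9.70 in stroke wild-type dura. It measured 8.29, 8.30 and 8.24 against 8.94, 8.43 and 8.69 in deficient and 8.29, 8.64 and 8.59 against 8.70, 8.88 and 8.88 in engrafted dura. The wild-type stroke mice lay above all others, and Socs3 rose there by 1.46 (SE 0.11, adjusted p = 1.89e-06). Jak1 and Stat3, a kinase and a transcription factor of cytokine receptors, rose by 0.21 and 0.29; Jak1 lost its call without wild-type stroke replicate 1 (adjusted p = 0.0506), with the covariates (0.0771), without the 5 low-Ttr arrays (0.113) and with only the compared groups in the fit (0.118). Stat3 lost it without each single wild-type mouse but naive replicate 2 (adjusted p up to 0.153), with the replicate number as a block (0.0635) and with only the compared groups (0.0739). With the covariates the Stat3 difference was 0.095 (adjusted p = 0.521). Of 12 genes that induce interferon, 2 rose in wild type, beside the same 6.24% of all tested: Myd88, the adaptor of Toll-like receptors, by 0.68 (SE 0.09, adjusted p = 0.000139) and the kinase gene Ikbke by 0.43 (SE 0.09, adjusted p = 0.00605), the latter not with the covariates (adjusted p = 0.119). No gene of these 3 lists passed in deficient or engrafted dura after stroke.

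A list of 56 further measured interferon-stimulated genes held 11 that rose and 1 that fell after stroke in wild type, 6 that rose in engrafted and none in deficient dura. Over all tested probe sets 6.24% rose and 4.63% fell in wild type, 0.878% rose in engrafted and 0.125% in deficient dura. Ifitm1, which hinders viral entry, measured 10.78, 10.55 and 10.22 in naive and 11.68, 12.01 and 11.77 in stroke wild-type dura and rose by 1.31 (SE 0.15, adjusted p = 4.42e-05). In engrafted dura it measured 10.64, 10.54 and 10.43 against 11.42, 11.67 and 11.70 and rose by 1.06 (SE 0.15, adjusted p = 0.00238). Stroke and naive mice did not overlap in either. Slfn9, of the Schlafen family, measured 7.61, 7.46 and 7.26 against 8.83, 8.44 and 8.51 in wild type, a rise of 1.15 (SE 0.13, adjusted p = 6.6e-05). Mlkl, the membrane-rupturing protein of necroptosis, measured 7.30, 7.33 and 7.10 against 8.11, 7.99 and 7.86, a rise of 0.75 (SE 0.11, adjusted p = 0.000616). Ifitm3 rose by 0.48 (SE 0.10, adjusted p = 0.00617), but not without the 5 low-Ttr arrays (adjusted p = 0.059), with the covariates (0.0985) or with only the compared groups (0.0795). In Ifitm1, Slfn9 and Mlkl every wild-type stroke mouse lay above every naive one. In engrafted dura Ifitm6 rose by 1.87 (SE 0.30, adjusted p = 0.00769), from 8.18, 8.07 and 8.996 to 9.71, 10.16 and 10.98, without overlap. Mlkl rose there by 0.68 (SE 0.11, adjusted p = 0.00919) and Slfn4 by 0.89 (SE 0.16, adjusted p = 0.0119); Mlkl lost its call without engrafted naive or stroke replicate 2, and Slfn4 without engrafted naive replicate 1 or 2 or stroke replicate 3. With only the compared groups in the fit Ifitm6 (adjusted p = 0.132), Mlkl (0.128) and Slfn4 (0.138) did not pass in engrafted dura. The one that fell in wild type was Cxcl9, a chemokine induced by interferon gamma, named here after its value was seen. It measured 8.40, 9.06 and 8.60 against 7.67, 7.40 and 7.80, a difference of -1.06 (SE 0.26, adjusted p = 0.0149), and lost its call without wild-type naive or stroke replicate 2, with the covariates (adjusted p = 0.0632) and without the 5 low-Ttr arrays (0.11).

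In stroke dura several of these genes were lower in deficient than in wild-type mice, as Zbp1 was. The deficient minus wild-type difference was -0.88 (SE 0.11, adjusted p = 0.000508) for Socs3, -0.82 (SE 0.13, adjusted p = 0.00393) for Slfn9 and -0.86 (SE 0.15, adjusted p = 0.00505) for Ifitm1. It was -0.54 (SE 0.11, adjusted p = 0.0172) for Mlkl, -0.63 (SE 0.16, adjusted p = 0.0433) for Slfn4 and -0.42 (SE 0.09, adjusted p = 0.0149) for Myd88. The Socs3 and Slfn9 calls held without any single array and without the 5 low-Ttr arrays. Ifitm1 lost its call without those 5 (adjusted p = 0.136), and Mlkl, Slfn4 and Myd88 lost theirs without those 5 and without single stroke mice. Mlkl (adjusted p = 0.0725) and Myd88 (0.0678) also lost it with the covariates, and Slfn4 (0.0626) with only the compared groups. Socs3 was lower in engrafted than in wild-type stroke dura too, with a difference of -0.75 (SE 0.11, adjusted p = 0.0066), but it lost its call without wild-type stroke replicate 3 (adjusted p = 0.0561), with the covariates (0.172) and with only the compared groups (0.15). With a minimum change of 1.5-fold, of the pathway genes' calls given here those of Socs3 and Ifitm1 in wild-type stroke dura passed and the others did not.

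**Figure D5:**
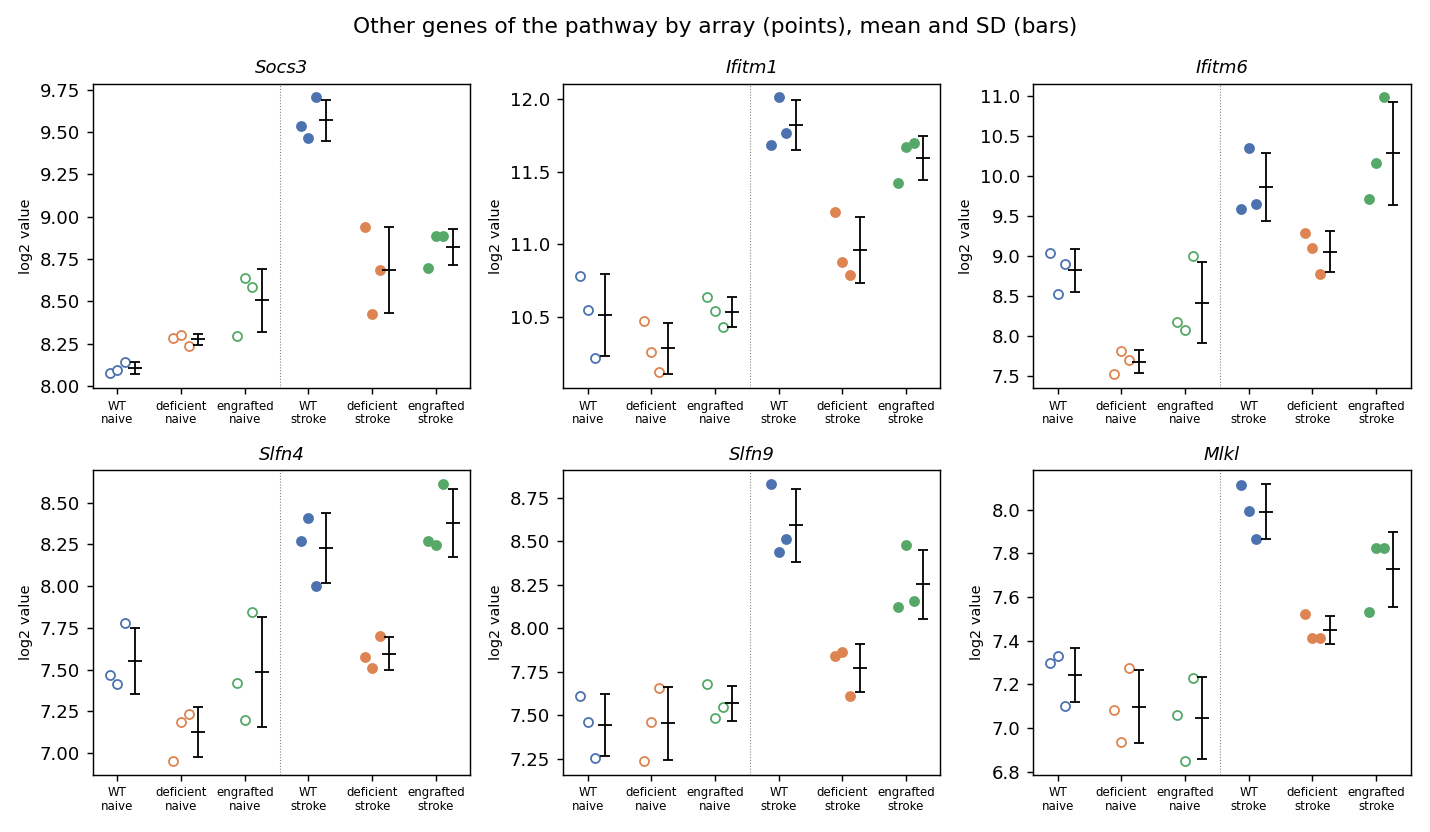
Log2 level of Socs3, Ifitm1, Ifitm6, Slfn4, Slfn9 and Mlkl in each of the 18 mice by group; points are mice and bars the group mean and SD. Socs3 at 9.47 to 9.70 in wild-type stroke dura lies above all other mice. In every gene but Slfn9 the stroke mice of each category lie above its naive mice. Slfn9 overlaps in deficient dura.

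Markers of other cell types differed between the same groups. Neutrophil markers (10 genes) averaged 8.67 in naive and 9.09 in stroke wild-type dura, 7.93 and 8.49 in deficient, and 8.41 and 9.22 in engrafted dura. Their ranges in the 6 groups, in the same order, were 8.44 to 8.78 and 8.78 to 9.47, 7.75 to 8.03 and 8.36 to 8.59, and 8.14 to 8.92 and 8.83 to 9.71. The naive and stroke ranges overlapped in wild-type and engrafted dura but not in deficient dura. Of the 10, 3 rose in wild type and none in the other categories. Among all tested probe sets 6.24% rose and 4.63% fell in wild type, 0.878% rose in engrafted and 0.125% in deficient dura. Macrophage and monocyte markers (10 genes) averaged 9.77 and 9.98 in wild-type, 9.81 and 9.92 in deficient and 9.83 and 10.09 in engrafted dura, with 3 risen in wild type and 1 in engrafted dura. Their ranges were 9.62 to 9.87 and 9.84 to 10.06, 9.59 to 9.99 and 9.87 to 9.99, and 9.68 to 9.95 and 9.94 to 10.22. Markers of plasmacytoid dendritic cells (7 genes), which make much interferon, averaged 8.45 and 8.32 in wild-type, 8.49 and 8.46 in deficient and 8.54 and 8.49 in engrafted dura. Siglech of this list is also in the list of microglia markers (4 genes), so the list is not specific to these cells. The microglia markers averaged 9.15 and 9.01 in wild-type, 9.23 and 9.18 in deficient and 9.25 and 9.17 in engrafted dura. Neuron markers (9 genes) averaged 10.43 and 9.63, 10.59 and 10.22, and 10.57 and 10.46, with 4 lower after stroke in wild type. The part of these cells in the differences above was not tested, and in a bulk sample fewer cells of a type cannot be told apart from less RNA per cell.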

How the data were processed

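Dura from 18 mice was measured on 18 Affymetrix arrays. The deposited values are log2 signals per probe set; the submitters' processing notes list RMA, affy and R 3.0.0, without the role of each. No scan date or batch is given. Gene symbols came from the platform annotation, and 21553 tested probe sets had an identifier in RefSeq (GRCm38.p6). Left out were 1321 probe sets with several symbols and 11799 without an entry.

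Groups follow the labels. Differences came from limma 3.58.1 (R 4.3.3), with a mean for each group, the 18 arrays together and an empirical Bayes spread (residual degrees of freedom 12, prior 3.41); the fit was tested on simulated data. In each of 13 comparisons the Benjamini-Hochberg adjustment covered all 21640 probe sets that were tested, and 0.05 was the threshold. Summaries, promoter searches and figures were made in Python 3.11.15 using pandas (2.3.3) and matplotlib (3.10.9).

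The members and the role, pathway and marker lists were chosen with earlier results of these data known, so no set test was run. Members were named where they passed or, where fewer than 5 passed, as the 5 with the smallest p; pathway genes as up to 4 per list by the smallest p, Cxcl9 excepted. Deviations of same-numbered mice of different groups varied in sign, which cannot show whether the number pairs mice. Alternatives were each array left out in turn, the 5 low-Ttr arrays left out, probe sets kept only where at least 3 arrays exceeded the median of all values, quantile normalization once more, array weights, the replicate number as a block, a robust variance with a mean trend, choroid plexus and neuron marker scores as covariates, only the compared groups, a minimum change of 1.5-fold and, for Irf1, its other probe set. The number of arrays limits the precision.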

Additional observations from a re-analysis of the deposited data

Results flagged for a closer look

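Socs3, the inhibitor of cytokine receptors, stood out among the pathway genes because its stroke response differed between the categories by a test of that difference itself. Its response was smaller in deficient than in wild-type dura, with a difference of -1.05 (SE 0.16, adjusted p = 0.00774 in limma), and smaller in engrafted than in wild-type dura, with a difference of -1.15 (SE 0.16, adjusted p = 0.00801). All wild-type stroke mice (9.54, 9.47 and 9.70) lay above the deficient (8.94, 8.43 and 8.69) and engrafted (8.70, 8.88 and 8.88) stroke mice. Naive wild-type mice (8.08, 8.10 and 8.14) lay below the naive deficient (8.29, 8.30 and 8.24) and engrafted (8.29, 8.64 and 8.59) mice. The naive engrafted minus wild-type difference of 0.40 (SE 0.11, adjusted p = 0.133) is part of the -1.15. Both differences of responses rest on the same 6 wild-type mice. Without the 5 arrays lowest in Ttr they were -1.004 (adjusted p = 0.206) and -1.16 (adjusted p = 0.0583). Leaving out each of the 12 mice behind a difference in turn gave -1.18 to -0.92 (adjusted p up to 0.0289) for deficient and -1.26 to -1.08 (adjusted p up to 0.0407) for engrafted minus wild-type, and no call was lost. With a minimum change of 1.5-fold neither passed (adjusted p = 1 in both).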

How the results depend on the processing

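Counts of members past the threshold moved by over 1.5 times as follows. In wild-type stroke dura the count was 1 as reported, 2 with array weights, 2 with dim probe sets left out, 0 with a minimum change of 1.5-fold, and 1 to 3 without single mice. In engrafted stroke dura it was 0, and 1 (Psmb8) with scores of choroid plexus and neuron markers in the fit (below, the covariates). For the mean of the 3 categories it was 4, then 8 with array weights, 2 with the covariates, 0 with the minimum change, and 2 to 7 without single mice. For deficient against wild-type stroke dura it was 1, then 2 with array weights, 0 with the covariates, 0 without the 5 arrays lowest in Ttr, 0 with the minimum change, and 0 to 1 without single mice. For the difference of the deficient and wild-type stroke responses it was 0, and 0 to 1 without single mice. Fits without single mice aside, the other 105 recomputed counts stayed within 1.5 times. Most of these compared a count of 0 with 0, which says little about how stable the counts are. Directions turned for Irf1 in deficient stroke dura with its other probe set (-0.018, adjusted p = 0.931) and for Oas3 in engrafted against deficient naive dura without the 5 arrays (-0.063, adjusted p = 1). The other Irf1 probe set was also below 0 after stroke in wild-type dura (-0.022), in engrafted dura (-0.13) and for the mean of the 3 categories (-0.057). The chosen one was above 0 in each of these. The cause was not tested. Among all tested probe sets, deficient against wild-type stroke dura gave 565 calls as reported, 1743 with array weights, 329 with the covariates, 95 without the 5 arrays and 19 with the minimum change. Deviations of same-numbered mice varied in sign (45 pairs, r of -0.61 to 0.60, median -0.06). With 3 mice a group this cannot show whether the number pairs mice. With the replicate block the counts of members were as reported, with 1 in wild-type stroke dura and 4 for the mean of the 3 categories. Among the pathway genes Stat3 then lost its call in wild type (adjusted p = 0.0635). For the mean of the 3 categories Stat3 (0.0503), Jak1 (0.067) and Ptpn6 (0.0536) lost theirs. The median SE of 0.14 belongs to the difference of a single member. The mean of the 36 members varied between mice of a group with a pooled SD of 0.14. With 3 mice a group, small shared shifts of the members therefore lie near what the arrays resolve.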
